A study of Mus musculus with 29 samples.

Results

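The subject was the response of the liver to refeeding in obese mice whose hepatocytes express a SUMO-deficient form of the transcription factor Prox1, Prox1 (K556R). The 15 libraries labelled with this genotype, 7 from fasted and 8 from refed animals, were taken from the 29 liver libraries of the series, and the comparison was made across 15603 genes that passed a filter on low counts, of 54532 gene identifiers in the table. All animals were male. Per the labels, the mutation was switched on by Cre recombination at 8 weeks of age, after which the mice ate a diet with 45% fat and 20% fructose for 18 weeks. Livers were collected at Zeitgeber time 15 to 17 h, fasted or re-fed. The wild-type mice, here a reference of 8 fasted and 6 refed libraries, carried the wild-type protein and are labelled as controls; the labels describe the same diet, sex and collection time for every library. The length of the fast and of refeeding, the way Cre was delivered and whether the controls also received it are not given in the sources used here. Libraries came in 2 batches per the labels (4 fasted and 4 refed in batch 1, 3 fasted and 4 refed in batch 2 for K556R), and batch was a term in the model. The labels number the repeats but do not say that each came from a separate animal, so every p-value reflects the spread between samples that may be technical repeats.

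Prox1 is a homeobox protein of hepatocytes that acts largely as a co-repressor of nuclear receptors. SUMOylation attaches a small protein to a lysine, here the one that K556R replaces by arginine, and can change how a transcription factor binds its partners. As background to the results, refeeding raises insulin and glucose, and through the factors SREBP-1c and ChREBP the liver turns on fatty acid synthesis and glucose use. Fasting instead raises glucagon, glucocorticoids and free fatty acids, which turn on glucose production, fat oxidation and ketone formation.

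Levels are given as CPM, counts divided by a library total that was scaled for composition and set to a common size, and a triplet of values is the lowest, the median and the highest library of a group. Changes are log2 fold changes, refed over fasted, from edgeR's quasi-likelihood fit with their standard error (SE). A gene was called, and is said to have risen or fallen, where the p adjusted over all 15603 genes by the Benjamini-Hochberg method was below 0.05. Refeeding changed 2397 genes in K556R livers (15.4% of genes tested). Of these, 1088 rose (6.97%) and 1309 fell (8.39%). The median size of a called change was 0.42 on the log2 scale, and 323 genes changed by 2-fold or more (2.07%), 119 upward and 204 downward. The median log2 fold change of all tested genes was 0.009. In 544 genes the 8 refed libraries were all above or all below the 7 fasted ones (3.49% of genes tested).

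The K556R libraries held between 15657450 and 27159288 counts, more in batch 1. Alb, the most abundant hepatocyte marker, measured 41800 to 84520 CPM, and 0 of 7 hepatocyte markers were called by edgeR or DESeq2, with 0 at an unadjusted p below 0.05. Of 78 tested markers of macrophages, stellate cells, endothelium, bile ducts, blood and other cells, 1 was called (Lrat). Their summed levels overlapped between the groups, for example 308 to 899 CPM fasted and 444 to 733 CPM refed over the 16 macrophage markers. In bulk liver RNA, fewer cells of a type and less RNA per cell cannot be told apart. On the main axes of variation, batch took 98.7% of the first principal component (39.1% of the variance) and feeding took 82.2% of the third (11.7%). On the second (18.1% of the variance) 2 libraries stood apart, K556R refed batch 1 replicate 4 and K556R fasted batch 2 replicate 2. Without both, 2066 genes were called (901 higher, 1165 lower), of which 1891 were among the 2397.

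Prox1 itself (chromosome chr1:190118035-190170714) was expressed in all libraries. It measured 167, 188 and 203 CPM fasted and 120, 149 and 203 CPM refed. Refed libraries were mostly lower, but 1 of them, the batch 1 replicate 4 library that stood apart, reached the highest fasted value. Prox1 fell slightly (log2 fold change -0.31, SE 0.087, adjusted p = 0.0119). Gene counts do not tell the mutant from the wild-type transcript, so they do not check the genotype.

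**Figure D1:**
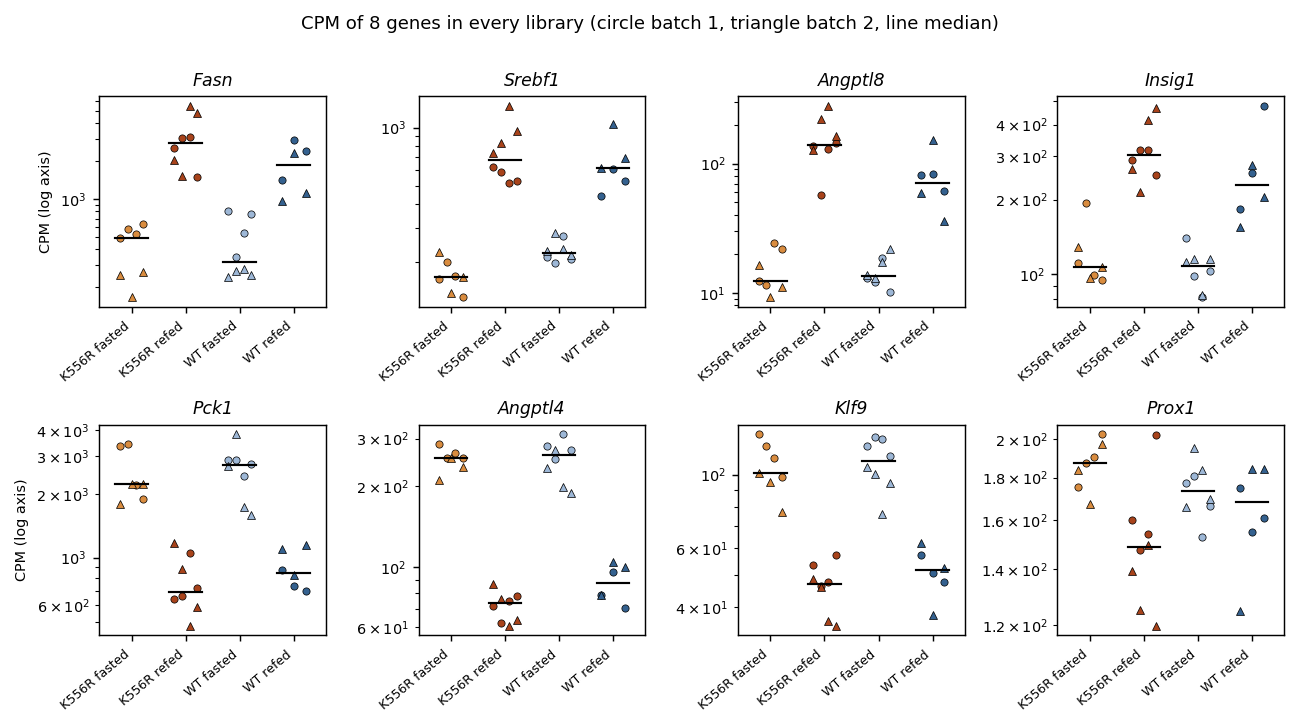
CPM on a log axis in every library for 8 genes, by genotype and feeding state; circles are batch 1, triangles batch 2 and lines group medians. In K556R livers the refed values of Fasn, Srebf1, Angptl8 and Insig1 lie above all fasted values, those of Pck1, Angptl4 and Klf9 lie below them, and those of Prox1 overlap.

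For each list described, the count called is to be read against the 15.4% of all genes tested that were called. Fatty acid synthesis had the highest median of the 32 lists described. Of the 15 lipogenic genes in the list, 11 rose and 0 fell, and the list's median log2 fold change was 1.24. Fasn, the fatty acid synthase (chromosome chr11:120805846-120824547), measured 167, 496 and 637 CPM fasted and 1490, 2776 and 5462 CPM refed. Every refed library exceeded every fasted one, and the fold was 8.43 (log2 fold change 3.08, SE 0.34, adjusted p = 1.39e-07). Acly, which makes cytosolic acetyl-CoA from citrate, measured 115, 143 and 236 CPM fasted and 304, 621 and 1308 CPM refed, again with no overlap (log2 fold change 2.21, SE 0.27, adjusted p = 9.58e-07). Acaca, the acetyl-CoA carboxylase that supplies malonyl-CoA, measured 56.9, 133 and 187 CPM fasted and 187, 329 and 400 CPM refed and rose 2.71-fold (log2 fold change 1.44, SE 0.19, adjusted p = 2.92e-06). Mid1ip1, an activator of acetyl-CoA carboxylase, measured 10.1, 12.4 and 18.5 CPM fasted and 72.7, 95.1 and 176 CPM refed. All its refed values were far above the fasted ones (log2 fold change 2.91, SE 0.17, adjusted p = 8.28e-13).

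Regulators of this programme were among the genes that rose. Srebf1, which encodes SREBP-1, measured 132, 169 and 227 CPM fasted and 515, 682 and 1294 CPM refed and rose in both batches (log2 fold change 2.07, SE 0.15, adjusted p = 1.07e-10). Mlxipl, which encodes ChREBP, measured 179, 258 and 446 CPM fasted and 278, 397 and 535 CPM refed, with overlapping groups (log2 fold change 0.50, SE 0.14, adjusted p = 0.0136). The log2 fold change was 0.90 in batch 1 and 0.055 in batch 2. Thrsp, a lipogenic protein responsive to thyroid hormone and carbohydrate, measured 311, 623 and 817 CPM fasted and 895, 1088 and 2014 CPM refed without overlap (log2 fold change 1.24, SE 0.28, adjusted p = 0.00225). Pnpla3, a lipid droplet protein encoded by a SREBP-1c target gene, was scarce in fasted livers at 0.169, 1.61 and 3.59 CPM fasted and 7.23, 18 and 75.3 CPM refed. Its log2 fold change was the largest of the genes named here (4.32, SE 0.60, adjusted p = 7.50e-06), and its level when refed ranged widely. The cytosolic acetoacetyl-CoA synthetase Aacs rose 1.95-fold (log2 fold change 0.97, SE 0.19, adjusted p = 0.000533). In the elongation and desaturation list 2 of 12 genes rose and 0 fell (16.7% called, close to the 15.4% of all genes tested). Elovl6, which extends palmitate to stearate, rose 4.19-fold (log2 fold change 2.07, SE 0.28, adjusted p = 5.10e-06), and Elovl1 rose 1.29-fold (log2 fold change 0.36, SE 0.071, adjusted p = 0.000476). With the refed batch 1 replicate 4 library left out, 4 of the 12 rose. Scd1, the stearoyl-CoA desaturase and the most abundant gene of that list, measured 11460, 14370 and 20600 CPM fasted and 8311, 21340 and 31080 CPM refed. It was already high in the fasted state, and its difference was not called (log2 fold change 0.53, SE 0.22, adjusted p = 0.104). Scd1 was called in 1 of the 15 fits that each left out 1 library. Without both libraries that stand apart it was also called (0.68, adjusted p = 0.0206).

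Triglyceride assembly split into members that rose and members that fell. Gpam, the mitochondrial enzyme of the first acylation step, measured 137, 147 and 205 CPM fasted and 148, 385 and 501 CPM refed and rose (log2 fold change 1.18, SE 0.22, adjusted p = 0.000261), and the acyltransferase Agpat2 rose 1.23-fold (log2 fold change 0.30, SE 0.064, adjusted p = 0.00143). The 4 members that fell were Lpin1, Lpin2, Gpat4 and Agpat3. Lpin2, a phosphatidate phosphatase, measured 494, 555 and 739 CPM fasted and 136, 278 and 355 CPM refed, with all refed libraries below all fasted ones (log2 fold change -1.14, SE 0.14, adjusted p = 1.86e-06). Lpin1, its relative, measured 82.5, 401 and 848 CPM fasted and 49.6, 90.6 and 106 CPM refed and fell 3.31-fold (log2 fold change -1.73, SE 0.50, adjusted p = 0.0172). Its fasted libraries separated by batch, high in batch 1 and low in batch 2, and the log2 fold change was -2.98 in batch 1 and -0.083 in batch 2. Gpat4 (log2 fold change -0.56, adjusted p = 0.000202) and Agpat3 (-0.26, adjusted p = 0.00106) fell less.

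Of 16 lipid droplet and lipolysis genes 6 fell and 0 rose, with a median of -0.25. Lipe, the hormone-sensitive lipase, measured 19.2, 22.2 and 27.9 CPM fasted and 8.79, 11 and 15 CPM refed (log2 fold change -0.99, SE 0.090, adjusted p = 3.83e-09). Pnpla2, the adipose triglyceride lipase, measured 106, 131 and 150 CPM fasted and 44.2, 65.7 and 90.3 CPM refed (log2 fold change -0.92, SE 0.12, adjusted p = 2.19e-06). Neither gene's groups overlapped, and Lipe fell equally in the batches (-0.98 and -1.01), whereas Pnpla2 fell more in batch 1 (-1.27 against -0.54). Fitm2, which takes part in droplet formation, fell 1.6-fold (log2 fold change -0.68, SE 0.092, adjusted p = 5.25e-06). The droplet coat proteins Plin4 and Plin5 fell in batch 1, by 2.06 and 1.15 on the log2 scale, with -0.43 and -0.092 in batch 2; over both batches the adjusted p was 0.00133 for Plin4 and 0.00195 for Plin5.

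Of 22 genes of cholesterol synthesis 9 rose and 0 fell, with a median log2 fold change of 0.65. The count depended on single libraries: it was 14 without K556R fasted batch 1 replicate 2, which had the highest fasted Insig1 level, and 7 without the 2 libraries that stand apart. Mvd, the mevalonate diphosphate decarboxylase, measured 2.36, 5.82 and 9.97 CPM fasted and 14.7, 20.7 and 42.2 CPM refed. Its lowest refed library was above its highest fasted one (log2 fold change 2.14, SE 0.35, adjusted p = 6.24e-05). Insig1, the sterol-regulated anchor that retains SREBP in the endoplasmic reticulum, measured 95.1, 107 and 194 CPM fasted and 215, 302 and 466 CPM refed (log2 fold change 1.43, SE 0.20, adjusted p = 1.07e-05). Sc5d, a late sterol desaturase, measured 200, 254 and 350 CPM fasted and 407, 498 and 693 CPM refed (log2 fold change 1.01, SE 0.15, adjusted p = 1.46e-05). Fdps rose 3.4-fold from a low level (log2 fold change 1.76, SE 0.33, adjusted p = 0.000271), and its counts may be shared with near-identical copies. Sqle, the squalene epoxidase, spread from 4.28 to 47.5 CPM when fasted and was not called (log2 fold change 1.16, SE 0.41, adjusted p = 0.0532). It was called in 3 of the 15 fits that each left out 1 library.

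Hmgcs1, the HMG-CoA synthase, measured 81.4, 137 and 271 CPM fasted and 180, 250 and 294 CPM refed (log2 fold change 0.70, SE 0.24, adjusted p = 0.0414). That call was lost in 10 of the 15 fits that each left out 1 library, with a highest adjusted p of 0.0997 without K556R fasted batch 2 replicate 2. Hmgcs1 was the 1 gene among 17 cholesterol genes with a RefSeq promoter (250 bases before to 50 after the start, GRCm38.p6) that held the sterol regulatory element TCACNCCAC on either strand. The 250 bases before its start, chr13:119690101-119690350 on the plus strand, are shown because this element is the textbook binding site of SREBP; the capitals mark it.
Hmgcs1 promoter: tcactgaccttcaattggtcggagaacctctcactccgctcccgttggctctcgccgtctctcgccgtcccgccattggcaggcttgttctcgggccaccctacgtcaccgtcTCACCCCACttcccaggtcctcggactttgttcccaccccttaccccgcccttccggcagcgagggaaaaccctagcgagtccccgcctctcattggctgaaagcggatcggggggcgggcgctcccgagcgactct
The same letters occurred in 1.54% of the promoters of all 11054 tested genes with one, in 1.45% of those of genes that rose and in 2.26% of those of genes that fell. The CCAAT box, CCAAT on either strand, was in 16 of the 17 cholesterol promoters (94.1%), against 42.3% of all promoters, 46.6% of those of genes that rose and 45.2% of those of genes that fell.

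Among the genes of sterol uptake and export, 3 of 14 rose and 3 fell. Stard4, a cytosolic sterol carrier, rose (log2 fold change 0.77, adjusted p = 0.00103). The lysosomal exporter Npc1 (-0.51, adjusted p = 6.88e-05), the HDL receptor Scarb1 (-0.39, adjusted p = 0.000434) and the canalicular transporter Abcg8 (-0.55, adjusted p = 0.00158) fell. In bile acid synthesis and transport 1 of 19 genes rose and 3 fell (21.1% called, against 15.4% of all genes tested). The sterol 27-hydroxylase Cyp27a1 measured 385, 463 and 513 CPM fasted and 289, 338 and 380 CPM refed and fell without overlap (log2 fold change -0.43, SE 0.082, adjusted p = 0.000362). Acox2, the peroxisomal oxidase of the bile acid side chain, fell (-0.29, adjusted p = 0.00557), and so did the basolateral exporter Abcc3 (-0.43, adjusted p = 0.0349). Nr0b2, the bile-acid-induced repressor SHP, was higher (log2 fold change 0.85, SE 0.26, adjusted p = 0.0233). The Abcc3 call was lost in 6 of the 15 fits that each left out 1 library, with a highest adjusted p of 0.0682 without K556R fasted batch 1 replicate 2; the Nr0b2 call was lost in 1 of the 15 fits that each left out 1 library, with a highest adjusted p of 0.0532 without K556R fasted batch 1 replicate 4. Cyp7a1, the rate-limiting enzyme of bile acid synthesis, measured 93.8, 122 and 157 CPM fasted and 70, 97.6 and 194 CPM refed and was not called (log2 fold change -0.056, SE 0.20, adjusted p = 0.898).

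Of 17 genes of glucose uptake and glycolysis 7 rose and 2 fell, with a median of 0.19. Pklr, the liver pyruvate kinase, measured 273, 327 and 428 CPM fasted and 429, 476 and 582 CPM refed, without overlap (log2 fold change 0.60, SE 0.12, adjusted p = 0.000839). Gpi1 (log2 fold change 0.47, adjusted p = 0.00985) and the glucose transporter Slc2a2 (0.32, adjusted p = 0.00782) rose less. The 2 members that fell, Pfkfb1 (-0.63, adjusted p = 0.00245) and Pfkfb2 (-0.52, adjusted p = 0.000479), are both forms of the enzyme that makes and removes fructose 2,6-bisphosphate.

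Of 8 fructose genes 3 rose and 1 fell. Khk, the ketohexokinase, measured 449, 509 and 647 CPM fasted and 623, 734 and 794 CPM refed (log2 fold change 0.43, SE 0.090, adjusted p = 0.00128). Tkfc, the triokinase, measured 301, 456 and 758 CPM fasted and 692, 877 and 958 CPM refed (log2 fold change 0.94, SE 0.15, adjusted p = 6.27e-05). Glyctk fell (-0.29, adjusted p = 0.00513).

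Glycogen genes included 4 of 15 that rose and 1 that fell (33.3% called, against 15.4% of all genes tested). Ppp1r3b, a glycogen-targeting subunit of protein phosphatase 1, measured 307, 361 and 572 CPM fasted and 510, 659 and 733 CPM refed (log2 fold change 0.71, SE 0.12, adjusted p = 6.33e-05). Its relatives moved in opposite directions: Ppp1r3c rose 1.63-fold (log2 fold change 0.71, SE 0.18, adjusted p = 0.00575), and Ppp1r3g, scarce throughout, measured 0.531, 1.78 and 4.87 CPM fasted and 0.055, 0.19 and 0.493 CPM refed and fell without overlap (log2 fold change -3.04, SE 0.58, adjusted p = 0.000417). The phosphorylase Pygl rose (0.41, adjusted p = 0.000339). In the pentose phosphate and NADPH list 4 of 12 rose and 1 fell. Rpia, the ribose 5-phosphate isomerase, measured 3.94, 5.6 and 6.75 CPM fasted and 8.71, 11.5 and 18.9 CPM refed, without overlap (log2 fold change 1.27, SE 0.19, adjusted p = 2.48e-05). Pgd (0.78, adjusted p = 0.00154) and malic enzyme Me1 (0.60, adjusted p = 0.00273) make NADPH in the cytosol and rose, as did Idh1 (0.21, adjusted p = 0.030), whose call was lost in 4 of the 15 fits that each left out 1 library, with a highest adjusted p of 0.0816 without K556R fasted batch 2 replicate 3. H6pd, which makes NADPH inside the endoplasmic reticulum, fell (-0.54, adjusted p = 0.00113).

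Of 18 gluconeogenic genes 6 fell and 1 rose. The list's median was -0.21, with -0.31 in batch 1 and 0.11 in batch 2. Pck1, the cytosolic phosphoenolpyruvate carboxykinase (chromosome chr2:173153048-173159273), measured 1795, 2227 and 3444 CPM fasted and 478, 692 and 1169 CPM refed. All refed libraries were below all fasted ones, a 3.15-fold fall that was seen in both batches (log2 fold change -1.65, SE 0.19, adjusted p = 5.33e-07). The transcription factor Foxo1, which insulin restrains, measured 45.1, 51.9 and 77.6 CPM fasted and 24.8, 29.6 and 35.6 CPM refed (log2 fold change -0.95, SE 0.13, adjusted p = 6.00e-06). The co-activators Ppargc1b (-1.04, adjusted p = 1.65e-06) and Ppargc1a (-0.70, adjusted p = 0.00139) fell, as did Creb3l3 (-0.41, adjusted p = 0.000203), a liver factor of the CREB3 family. G6pc, which encodes the final enzyme of glucose release, measured 323, 371 and 495 CPM fasted and 440, 536 and 668 CPM refed. Its median was higher when refed, in the direction opposite to Pck1, and the difference was not called (log2 fold change 0.44, SE 0.19, adjusted p = 0.119). The 1 member that rose was Gpd1 (0.38, adjusted p = 0.0223), whose glycerol 3-phosphate also serves triglyceride synthesis; its call was lost in 1 of the 15 fits that each left out 1 library, with a highest adjusted p of 0.0523 without K556R fasted batch 1 replicate 2.

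Insulin signalling showed 10 of 19 genes lower and 1 higher (median -0.38). Irs2, the insulin receptor substrate induced by fasting, measured 20.5, 37.3 and 48 CPM fasted and 6.49, 11.4 and 21.5 CPM refed (log2 fold change -1.46, SE 0.24, adjusted p = 6.43e-05). The receptor Insr fell 1.32-fold without overlap (log2 fold change -0.40, SE 0.078, adjusted p = 0.00057). Pik3r1, the regulatory subunit of phosphoinositide 3-kinase, was the 1 member that rose, with 98.4, 115 and 144 CPM fasted and 162, 173 and 180 CPM refed (log2 fold change 0.56, SE 0.10, adjusted p = 0.00017). Igfbp1, the fasting-induced binding protein of insulin-like growth factors, measured 80.4, 133 and 245 CPM fasted and 15.3, 48.8 and 82.9 CPM refed (log2 fold change -1.52, SE 0.41, adjusted p = 0.0103).

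Among secreted hormones, 2 members of one family moved in opposite directions. Angptl8, an insulin-induced partner of the lipoprotein lipase inhibitors, measured 9.23, 12.3 and 24.4 CPM fasted and 57.6, 139 and 279 CPM refed. It rose 9.82-fold without overlap (log2 fold change 3.30, SE 0.30, adjusted p = 4.72e-09). Angptl4, the lipoprotein lipase inhibitor made in fasting (chromosome chr17:33773750-33781830), measured 211, 255 and 287 CPM fasted and 60.7, 73.4 and 86.8 CPM refed. It fell 3.48-fold, and each group was tight (log2 fold change -1.80, SE 0.10, adjusted p = 8.28e-13). Inhba, which encodes the activin A subunit, measured 5.11, 6.81 and 11.6 CPM fasted and 22.8, 38.7 and 76.9 CPM refed (log2 fold change 2.39, SE 0.23, adjusted p = 1.26e-08). Of the 24 genes in the list, 2 rose (Angptl8 and Inhba) and 3 fell (Angptl4, Igfbp1 and Igfbp4), or 20.8% called against 15.4% of all genes tested. The Igfbp4 change was small (-0.21, adjusted p = 0.0453), and its call was lost in 12 of the 15 fits that each left out 1 library, with a highest adjusted p of 0.118 without K556R fasted batch 2 replicate 2.

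Glucocorticoid and fasting targets had the lowest median of the 32 lists, -1.14, and 14 of 20 genes fell while 1 rose. Klf9, a Krüppel-like factor, measured 77.4, 101 and 132 CPM fasted and 35.1, 46.9 and 57.1 CPM refed, with equal falls in the batches (log2 fold change -1.17, SE 0.10, adjusted p = 1.58e-09). Cebpb, a basic leucine zipper factor of fasting and inflammation, measured 83.6, 120 and 153 CPM fasted and 34.6, 56.4 and 80.4 CPM refed (log2 fold change -1.18, SE 0.14, adjusted p = 3.37e-07). In neither gene did the groups overlap. Zbtb16, a zinc finger factor, measured 42.1, 64.5 and 123 CPM fasted and 5.71, 12 and 22.5 CPM refed and fell 5.81-fold (log2 fold change -2.54, SE 0.43, adjusted p = 8.75e-05). Fkbp5, the co-chaperone of the glucocorticoid receptor, measured 41.7, 201 and 312 CPM fasted and 36, 39.9 and 52.3 CPM refed (log2 fold change -1.71, SE 0.33, adjusted p = 0.000476). Its fall was 2.55 on the log2 scale in batch 1 and 0.54 in batch 2, and its fasted levels were lower in batch 2. Gadd45a, a stress gene, was the 1 member that rose, with 0.875, 2.51 and 2.59 CPM fasted and 4.6, 6.43 and 7.87 CPM refed (log2 fold change 1.46, SE 0.22, adjusted p = 2.81e-05), while Gadd45b fell (log2 fold change -1.70, SE 0.32, adjusted p = 0.000278). Tat (log2 fold change -0.75, SE 0.26, adjusted p = 0.0545) and Tsc22d3 (log2 fold change -0.54, SE 0.22, adjusted p = 0.0968) were not called. They were called in 3 and 2 of the 15 fits that each left out 1 library.

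Per1, a clock gene that glucocorticoids also induce, measured 21, 43.4 and 66.5 CPM fasted and 10.8, 14.7 and 30.4 CPM refed (log2 fold change -1.33, SE 0.24, adjusted p = 0.000202). Mt1, a metallothionein, measured 55.1, 188 and 430 CPM fasted and 16.8, 37 and 93 CPM refed, with fasted libraries that spread with batch (log2 fold change -2.16, SE 0.39, adjusted p = 0.000233). Both fell, by 1.43 and 1.21 on the log2 scale for Per1 and by 3.17 and 0.89 for Mt1 in batches 1 and 2. Their promoters are shown because each holds a match to a textbook motif. In the 250 bases before the Per1 start, chr11:69098699-69098948, the capitals mark an E-box, CACGTG, the motif of clock factors. In those before the Mt1 start, chr8:94178839-94179088, the capitals mark a match to the glucocorticoid response element, GNACA and TGTNC spaced by 3 bases (both plus strand). Whether either site acts on its gene was not tested.
Per1 promoter: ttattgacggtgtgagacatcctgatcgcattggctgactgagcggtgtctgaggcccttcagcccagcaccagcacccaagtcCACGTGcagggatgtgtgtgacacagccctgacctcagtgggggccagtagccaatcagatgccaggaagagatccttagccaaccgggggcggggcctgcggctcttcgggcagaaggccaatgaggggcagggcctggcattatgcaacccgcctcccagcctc
Mt1 promoter: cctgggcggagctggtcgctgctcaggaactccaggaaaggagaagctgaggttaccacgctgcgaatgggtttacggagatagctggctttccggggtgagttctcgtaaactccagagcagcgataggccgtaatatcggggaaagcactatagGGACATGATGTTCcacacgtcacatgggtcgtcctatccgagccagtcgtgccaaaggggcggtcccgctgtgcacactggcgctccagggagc
The E-box was in 6 of 15 glucocorticoid-list promoters (40%) and 5 of 16 clock promoters (31.2%), against 11.3% of all promoters, 14% of those of genes that rose and 15.6% of those of genes that fell. The glucocorticoid element, searched on both strands, was in 2 of the 15 (Sgk1 and Mt1) against 0.398% of all promoters, 0.121% of those of genes that rose and 0.72% of those of genes that fell. Sgk1 was not called (adjusted p = 0.838). A match is a run of letters in this window and says nothing of binding.

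Of 24 fat oxidation and ketogenesis genes 8 fell and 0 rose, with a median of -0.15. Cpt1a, the gate of fatty acids into mitochondria, measured 741, 943 and 1100 CPM fasted and 399, 631 and 838 CPM refed (log2 fold change -0.58, SE 0.12, adjusted p = 0.00105). Eci2, an enoyl-CoA isomerase, measured 255, 278 and 319 CPM fasted and 176, 209 and 215 CPM refed, without overlap (log2 fold change -0.49, SE 0.058, adjusted p = 5.37e-07). Acsl1 (-0.55, adjusted p = 0.000119), Acadm (-0.38, adjusted p = 0.00075) and the thioesterase Acot1 (-0.94, adjusted p = 3.22e-05) fell as well; Acot1 has close paralogs whose reads it may share.

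Among 20 targets of PPAR-alpha, the fatty acid receptor of fasting, 9 fell and 0 rose (median -0.36). Ppara itself measured 183, 216 and 248 CPM fasted and 96.3, 121 and 157 CPM refed, without overlap (log2 fold change -0.84, SE 0.11, adjusted p = 1.63e-06). Cyp4a32, a fatty acid omega-hydroxylase, measured 73.6, 87.2 and 104 CPM fasted and 27.9, 33.1 and 43.7 CPM refed. Both groups were tight, and the fall was the same in the batches (log2 fold change -1.36, SE 0.084, adjusted p = 3.14e-12). Its relatives varied more between libraries: Cyp4a10 measured 469, 1331 and 1832 CPM fasted and 197, 396 and 818 CPM refed (log2 fold change -1.22, SE 0.24, adjusted p = 0.000531), and Cyp4a14 measured 207, 1274 and 2201 CPM fasted and 70.6, 377 and 546 CPM refed and was not called (log2 fold change -1.25, SE 0.48, adjusted p = 0.0806). In batch 2 alone the log2 fold change of Cyp4a14 was 0.143. Cyp4a14 was called in 2 of the 15 fits that each left out 1 library. Reads of the Cyp4a genes may be shared between paralogs.

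Of 22 autophagy and lysosome genes 10 fell and 0 rose (7 fell without the 2 libraries that stand apart). Map1lc3b, the LC3 protein of the autophagosome membrane, measured 144, 164 and 199 CPM fasted and 84.3, 105 and 114 CPM refed (log2 fold change -0.69, SE 0.065, adjusted p = 7.96e-09). Its relative Gabarapl1 measured 271, 298 and 362 CPM fasted and 142, 178 and 227 CPM refed (log2 fold change -0.82, SE 0.072, adjusted p = 2.27e-09). Wipi1, an early autophagosome protein, measured 19.6, 22.7 and 28.7 CPM fasted and 9.81, 13.2 and 18.4 CPM refed (log2 fold change -0.82, SE 0.12, adjusted p = 1.06e-05). None of these 3 genes had overlapping groups. Atg2a, a lipid transfer protein of the growing membrane, fell 1.37-fold (log2 fold change -0.45, SE 0.072, adjusted p = 4.84e-05).

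In the urea cycle and amino acid list 4 of 26 genes fell and 1 rose (19.2% called, near the 15.4% of all genes tested). Tdo2, the tryptophan dioxygenase, measured 1221, 2194 and 2646 CPM fasted and 1060, 1224 and 1657 CPM refed (log2 fold change -0.61, SE 0.12, adjusted p = 0.000435). Aass, of lysine breakdown, measured 306, 439 and 596 CPM fasted and 246, 290 and 345 CPM refed (log2 fold change -0.56, SE 0.10, adjusted p = 0.00013). Sds, the serine dehydratase, fell 2.16-fold (log2 fold change -1.11, SE 0.26, adjusted p = 0.00336), with -1.81 in batch 1 and -0.20 in batch 2. Bckdha fell slightly (-0.25, adjusted p = 0.0254), and its call was lost in 4 of the 15 fits that each left out 1 library, with a highest adjusted p of 0.0692 without K556R fasted batch 2 replicate 1. Cbs, the cystathionine synthase, measured 172, 193 and 210 CPM fasted and 222, 245 and 273 CPM refed and rose without overlap (log2 fold change 0.35, SE 0.074, adjusted p = 0.00144). Of 18 choline and one-carbon genes 2 rose and 4 fell. Chka, the choline kinase, measured 73, 115 and 144 CPM fasted and 148, 196 and 248 CPM refed (log2 fold change 0.88, SE 0.17, adjusted p = 0.000616). The abundant Bhmt (-0.44, adjusted p = 0.00594) and Mat1a (-0.39, adjusted p = 0.0122), which act in the methionine cycle, fell. Smaller changes were the rise of Pemt (0.23, adjusted p = 0.0365) and the falls of Ahcy (-0.40, adjusted p = 0.0159) and Chpt1 (-0.31, adjusted p = 0.0385). The calls of these 3 were lost in 8, 2 and 11 of the 15 fits that each left out 1 library, with highest adjusted p of 0.0891, 0.0567 and 0.0972 without K556R fasted batch 2 replicate 2 (Pemt, Ahcy) or K556R fasted batch 1 replicate 2 (Chpt1); without either of those libraries 2 of the 18 fell.

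Of 19 clock genes 4 rose and 8 fell. Bhlhe40, a repressor with a basic helix-loop-helix, measured 83.6, 109 and 134 CPM fasted and 120, 203 and 254 CPM refed (log2 fold change 0.85, SE 0.13, adjusted p = 3.58e-05). Cry1 rose 1.33-fold (log2 fold change 0.41, SE 0.070, adjusted p = 9.34e-05). Per2 measured 27.7, 49.8 and 71.9 CPM fasted and 69.5, 77.2 and 110 CPM refed and rose (log2 fold change 0.74, SE 0.15, adjusted p = 0.00057), in the direction opposite to Per1. Clock (-0.33, adjusted p = 0.00977) and Ciart, a repressor of the clock loop (-1.66, adjusted p = 0.010), fell. Ciart fell in batch 1 (-2.53) with -0.14 in batch 2. Its fasted batch 1 libraries measured 15.4 and 15.1 CPM in replicates 1 and 2, and 3.89 and 3.38 CPM in replicates 3 and 4. Refed batch 1 libraries measured 1.27 to 2.19 CPM, and all K556R batch 2 libraries lay between 1.64 and 2.42 CPM.

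Endoplasmic reticulum chaperones included 4 of 24 genes that rose and 2 that fell (25% called, against 15.4% of all genes tested). Their median was 0.28. Hspa5, the chaperone BiP, measured 375, 406 and 448 CPM fasted and 398, 567 and 1163 CPM refed. Its fasted libraries were tight and its refed ones spread widely (log2 fold change 0.62, SE 0.18, adjusted p = 0.0144). Manf, a secreted stress protein, measured 24.5, 32.9 and 33.9 CPM fasted and 31.7, 57.5 and 126 CPM refed (log2 fold change 0.98, SE 0.24, adjusted p = 0.00402), and the chaperone Hyou1 measured 62.3, 77.3 and 94.3 CPM fasted and 77.6, 119 and 252 CPM refed (log2 fold change 0.75, SE 0.20, adjusted p = 0.00872). For all 3 the log2 fold change was larger in batch 1 (0.88, 1.27 and 1.16) than in batch 2 (0.32, 0.63 and 0.25). The sensor Ern1 rose (0.45, adjusted p = 0.016), from 0.84 in batch 1 and 0.017 in batch 2. Herpud1, of protein degradation at the endoplasmic reticulum, measured 264, 387 and 523 CPM fasted and 174, 221 and 354 CPM refed and fell (log2 fold change -0.78, SE 0.15, adjusted p = 0.000578), as did the sensor Atf6 (-0.28, adjusted p = 0.000653). The Hspa5 promoter is shown because the endoplasmic reticulum stress element in it, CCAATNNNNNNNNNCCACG, is rare. Of 20 promoters of the list 9 held it on either strand (45%), against 0.181% of all promoters, 0.362% of those of genes that rose and 0% of those of genes that fell. Among the genes with the element Hspa5 was called. Hsp90b1, Pdia6, Calr, Canx, Dnajc3, Creld2, Syvn1 and Derl3 also held it and were not called. The 250 bases before the Hspa5 start, chr2:34771840-34772089 on the plus strand, carry the element in capitals. The element also contains a CCAAT box.
Hspa5 promoter: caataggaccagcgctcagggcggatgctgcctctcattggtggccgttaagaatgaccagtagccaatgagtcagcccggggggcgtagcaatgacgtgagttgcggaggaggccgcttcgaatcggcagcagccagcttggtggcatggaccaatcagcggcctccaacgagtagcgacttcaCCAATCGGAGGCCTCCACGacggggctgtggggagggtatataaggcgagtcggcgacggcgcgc

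Targets of ATF4, the factor of the integrated stress response, were divided, with 3 of 17 higher and 4 lower. Chac1, a glutathione-degrading enzyme, measured 2.24, 4.14 and 8.78 CPM fasted and 1.19, 1.59 and 2.37 CPM refed (log2 fold change -1.50, SE 0.23, adjusted p = 2.34e-05). Sesn2, which senses leucine, measured 13.3, 17.3 and 23 CPM fasted and 8.15, 10.4 and 12.5 CPM refed, without overlap (log2 fold change -0.68, SE 0.12, adjusted p = 0.000198). Trib3, a pseudokinase that binds Akt, fell 2.06-fold (log2 fold change -1.04, SE 0.18, adjusted p = 0.000153), and Ppp1r15a fell (-0.36, adjusted p = 0.0116). Atf4 (0.29, adjusted p = 0.0173), Atf5 (0.46, adjusted p = 0.028) and the serine synthesis enzyme Psph (0.45, adjusted p = 0.0119) rose. Without the 2 libraries that stand apart 1 of these 3 was called; the adjusted p was then 0.0907 for Atf4 and 0.0896 for Atf5.

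Heat shock proteins rose in 5 of 18 cases and fell in 1 (33.3% called, against 15.4% of all genes tested). Hspa8, the constitutive HSC70 and one of the most abundant genes that rose, measured 888, 1130 and 1495 CPM fasted and 1373, 1577 and 1835 CPM refed (log2 fold change 0.47, SE 0.089, adjusted p = 0.000362). Chordc1, an HSP90 co-chaperone, rose 1.36-fold (log2 fold change 0.44, SE 0.10, adjusted p = 0.00142), and Hsp90aa1 rose 1.36-fold (log2 fold change 0.45, SE 0.13, adjusted p = 0.0171). Hspa4 (0.24, adjusted p = 0.00306) and Dnaja1 (0.28, adjusted p = 0.0409) rose less, and the Dnaja1 call was lost in 10 of the 15 fits that each left out 1 library, with a highest adjusted p of 0.106 without K556R fasted batch 2 replicate 3. Hspa1a, the inducible HSP70, was scarce at 0.868, 1.56 and 4.16 CPM fasted and 0.379, 0.96 and 1.5 CPM refed and fell (log2 fold change -1.08, SE 0.32, adjusted p = 0.0193). It has a near-identical copy, and its call was lost in 1 of the 15 fits that each left out 1 library, with a highest adjusted p of 0.0648 without K556R fasted batch 2 replicate 2. Leaving out that library also raised the number of heat shock genes called higher to 9. Ribosome biogenesis genes rose in 7 of 20 cases and fell in 0, with 4 called without the 2 libraries that stand apart. Utp20, of the small-subunit processome, measured 20.8, 26.6 and 29.6 CPM fasted and 34, 39.4 and 42.9 CPM refed (log2 fold change 0.60, SE 0.086, adjusted p = 1.10e-05), and the snoRNP protein Nop56 measured 15.7, 19.2 and 23.7 CPM fasted and 24.4, 26.8 and 30 CPM refed (log2 fold change 0.47, SE 0.10, adjusted p = 0.000901), both without overlap. Dkc1, the pseudouridine synthase, rose 1.27-fold (log2 fold change 0.35, SE 0.087, adjusted p = 0.00597).

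Regulators of hepatocyte identity and partners of Prox1 fell in 8 of 20 cases and rose in 0. Hnf4a, the nuclear receptor that Prox1 is known to bind, measured 592, 625 and 759 CPM fasted and 509, 524 and 555 CPM refed (log2 fold change -0.31, SE 0.063, adjusted p = 0.000911). Rxra, the partner of many nuclear receptors, measured 418, 487 and 529 CPM fasted and 340, 378 and 410 CPM refed (log2 fold change -0.35, SE 0.060, adjusted p = 0.000115). The co-repressor Ncor1 measured 132, 140 and 168 CPM fasted and 99.5, 117 and 130 CPM refed (log2 fold change -0.32, SE 0.072, adjusted p = 0.0022). The groups of these 3 genes did not overlap, and the folds were 1.24 for Hnf4a, 1.27 for Rxra and 1.25 for Ncor1. Of 18 genes of the SUMO pathway 1 was called (5.56%, against 15.4% of all genes tested): Uba2, a subunit of the SUMO-activating enzyme, measured 25.1, 27.4 and 31.2 CPM fasted and 31.4, 35.2 and 36.6 CPM refed and rose without overlap (log2 fold change 0.31, SE 0.059, adjusted p = 0.000404).

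Retinoid genes rose in 3 of 14 cases and fell in 0 (21.4% called, against 15.4% of all genes tested). Cyp26a1, the retinoic acid hydroxylase, measured 1.93, 2.69 and 5.99 CPM fasted and 7.16, 16 and 69.1 CPM refed (log2 fold change 2.77, SE 0.43, adjusted p = 3.51e-05). Its lowest refed library was above its highest fasted one. Lrat, which stores retinol as ester and marks stellate cells, rose (0.58, adjusted p = 0.0187), and its call was lost in 1 of the 15 fits that each left out 1 library, with a highest adjusted p of 0.0554 without K556R refed batch 2 replicate 4. The summed level of the 14 stellate and fibroblast markers was 431 to 757 CPM fasted and 349 to 753 CPM refed, and its part in the Lrat result was not tested. Stra6l, a retinol transporter of the liver, rose 1.19-fold (log2 fold change 0.25, SE 0.074, adjusted p = 0.0182). Drug metabolism genes under CAR and PXR fell in 4 of 19 cases and rose in 0 (21.1% called, against the same 15.4%). The list's median was -0.50 in batch 1 and 0.12 in batch 2. Por, the reductase that feeds electrons to cytochromes P450, measured 443, 583 and 766 CPM fasted and 180, 323 and 467 CPM refed (log2 fold change -0.99, SE 0.18, adjusted p = 0.000233), with -1.49 in batch 1 and -0.39 in batch 2. Cyp2b10, the classical CAR target, was scarce at 0.28, 4.57 and 11.1 CPM fasted and 0.452, 0.705 and 1.2 CPM refed and fell (log2 fold change -2.56, SE 0.67, adjusted p = 0.0074). Its fasted libraries measured 4.57 to 11.1 CPM in batch 1 and 0.28 to 1.83 CPM in batch 2, where they overlapped the refed ones. The receptor CAR itself, Nr1i3 (-0.37, adjusted p = 0.0245), and Sult1d1 (-0.63, adjusted p = 0.033) fell as well. The Nr1i3 call was lost in 3 of the 15 fits that each left out 1 library, with a highest adjusted p of 0.0754 without K556R fasted batch 1 replicate 2, the Sult1d1 call was lost in 9 of the 15 fits that each left out 1 library, with a highest adjusted p of 0.0818 without K556R fasted batch 1 replicate 1, and 2 of the 19 fell without K556R fasted batch 1 replicate 2.

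Acute phase genes fell in 6 of 21 cases and rose in 0 (28.6% called, against 15.4% of all genes tested). Without K556R fasted batch 1 replicate 1 they fell in 3 of the 21 cases. Saa3 measured 6.08, 11.6 and 20.2 CPM fasted and 4.58, 5.57 and 7.62 CPM refed (log2 fold change -1.03, SE 0.22, adjusted p = 0.0012), and Serpina3n, a protease inhibitor, measured 421, 589 and 694 CPM fasted and 363, 437 and 499 CPM refed (log2 fold change -0.40, SE 0.10, adjusted p = 0.00382). Interferon-response genes showed 0 calls among 18 by edgeR (0%, against 15.4% of all genes tested) and 0 by DESeq2, with 1 at an unadjusted p below 0.05. Of 20 cell cycle genes, 2 rose and 1 fell (15% called, against the same 15.4%). The list's median was -0.18 in batch 1 and 0.65 in batch 2. Ccnd1, cyclin D1, measured 9.34, 22.9 and 30.4 CPM fasted and 19.6, 49.1 and 81.5 CPM refed (log2 fold change 1.13, SE 0.26, adjusted p = 0.00262), and the helicase subunit Mcm3 measured 3.38, 5.87 and 7.59 CPM fasted and 5.77, 11.8 and 13.7 CPM refed (log2 fold change 0.82, SE 0.23, adjusted p = 0.0114). Cdkn1a, the inhibitor p21, fell 2.38-fold (log2 fold change -1.25, SE 0.32, adjusted p = 0.00701), with -2.11 in batch 1 and -0.092 in batch 2.

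**Figure D2:**
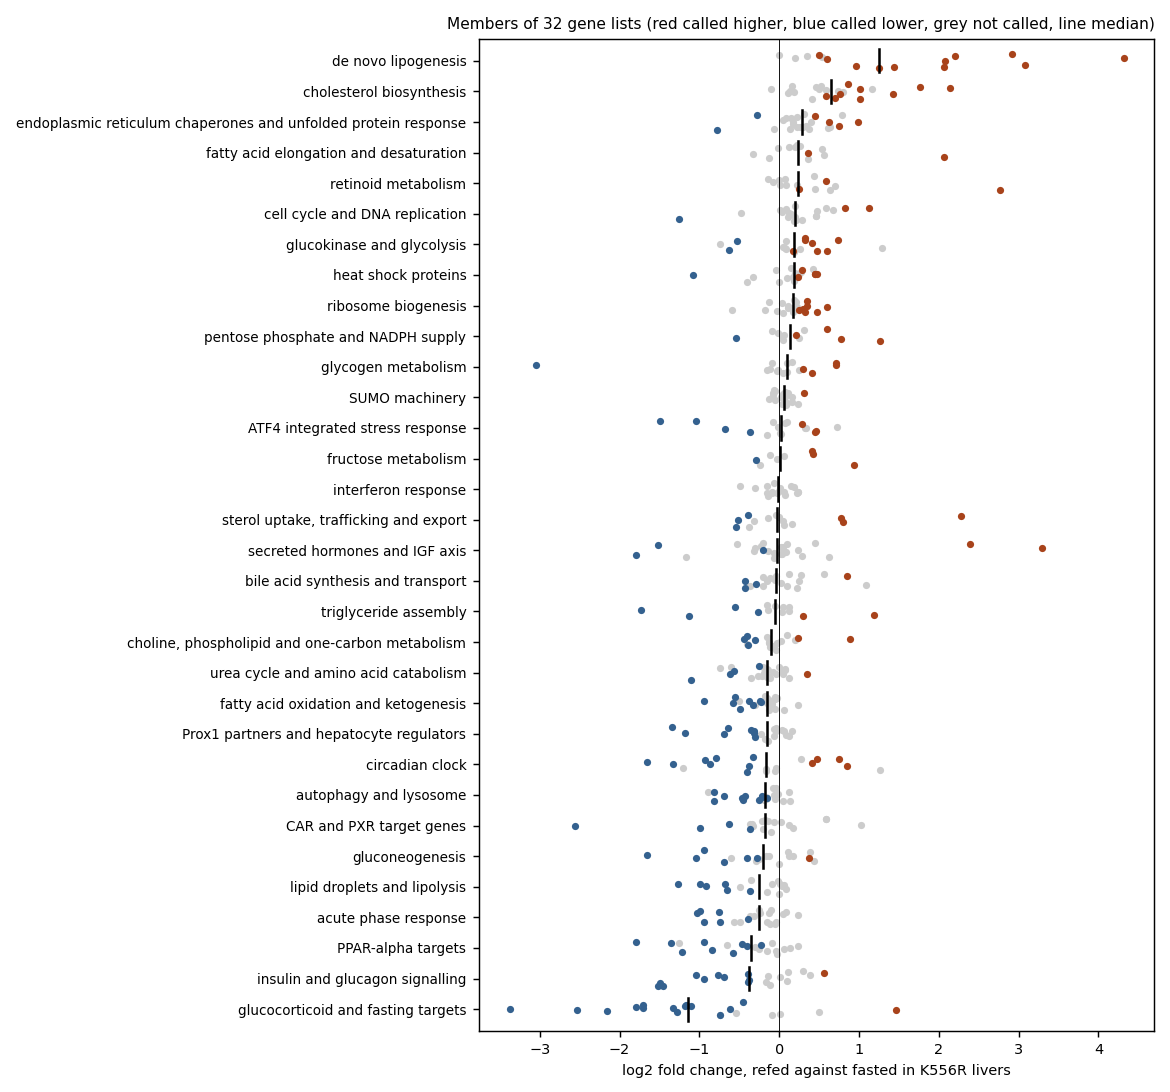
Log2 fold change, refed against fasted in K556R livers, of every tested member of 32 gene lists, ordered by their median (black line); red members rose, blue members fell at an adjusted p below 0.05 and grey members were not called. De novo lipogenesis, with a median of 1.24, stands at the top and the glucocorticoid and fasting targets, with a median of -1.14, at the bottom.

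Some of the largest changes lay outside these lists. Atp2b2, a plasma membrane calcium pump, measured 0.844, 1.18 and 2.03 CPM fasted and 5.69, 12.8 and 20.7 CPM refed. Fasted livers held almost none, and all refed libraries were higher (log2 fold change 3.21, SE 0.30, adjusted p = 6.20e-09). Tuba1c, an alpha tubulin, measured 23.3, 32.5 and 39.7 CPM fasted and 92.5, 132 and 165 CPM refed, also without overlap (log2 fold change 2.03, SE 0.15, adjusted p = 6.33e-11). Clic3, a chloride channel protein, measured 0.269, 1.01 and 2.48 CPM fasted and 2.2, 6.07 and 18.3 CPM refed and rose (log2 fold change 2.96, SE 0.47, adjusted p = 4.59e-05), and Chrna4, a subunit of the nicotinic acetylcholine receptor, rose 4.0-fold from a low and scattered level (log2 fold change 2.00, SE 0.65, adjusted p = 0.0331). The Chrna4 call was lost in 7 of the 15 fits that each left out 1 library, with a highest adjusted p of 0.0832 without K556R refed batch 2 replicate 4.

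The largest falls included several genes with narrow groups. Gpcpd1, a glycerophosphocholine phosphodiesterase, measured 95, 113 and 160 CPM fasted and 19.9, 26.9 and 40.4 CPM refed (log2 fold change -2.11, SE 0.17, adjusted p = 7.55e-10). Fbxo31, a subunit of a ubiquitin ligase, measured 83.4, 102 and 124 CPM fasted and 19.3, 27.1 and 41.5 CPM refed (log2 fold change -1.88, SE 0.13, adjusted p = 1.34e-11). Nlrp12, a NOD-like receptor, measured 65.3, 97.5 and 127 CPM fasted and 13.8, 32.4 and 37.5 CPM refed (log2 fold change -1.70, SE 0.15, adjusted p = 1.90e-09). None of the 3 had overlapping groups. Upp2, the uridine phosphorylase of liver, measured 139, 236 and 326 CPM fasted and 34.9, 69.3 and 92.1 CPM refed (log2 fold change -1.79, SE 0.31, adjusted p = 0.000147). Smad9, a signal transducer of bone morphogenetic proteins, measured 6.37, 12.3 and 25.8 CPM fasted and 1.6, 3.05 and 5.73 CPM refed (log2 fold change -1.87, SE 0.25, adjusted p = 4.25e-06), and Il1r1, the interleukin-1 receptor, measured 67.4, 91.3 and 203 CPM fasted and 20.7, 29.5 and 54.8 CPM refed (log2 fold change -1.83, SE 0.30, adjusted p = 6.54e-05). Scara5, a ferritin receptor, fell 4.24-fold (log2 fold change -2.08, SE 0.52, adjusted p = 0.0049), and the stress gene Gadd45g fell 3.16-fold (log2 fold change -1.66, SE 0.51, adjusted p = 0.0239). The Gadd45g call was lost in 1 of the 15 fits that each left out 1 library, with a highest adjusted p of 0.0939 without K556R fasted batch 1 replicate 1. Among the most abundant transcripts, Cyp2e1, the ethanol-inducible cytochrome P450, fell from a median of 8106 to 5468 CPM (log2 fold change -0.55, SE 0.13, adjusted p = 0.00309). Car3, a carbonic anhydrase, rose from 2118 to 2891 CPM (log2 fold change 0.46, SE 0.13, adjusted p = 0.0135), and Glud1, the glutamate dehydrogenase, rose from 1197 to 1431 CPM without overlap (log2 fold change 0.33, SE 0.050, adjusted p = 3.11e-05).

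Wild-type livers were set beside K556R livers to ask where the mutation altered this response. In the wild type 1667 genes were called (10.7% of genes tested), 819 higher and 848 lower. Of these, 1257 were called in both genotypes, 52.4% of the K556R calls and 75.4% of the wild-type calls, and all 1257 had the same direction. Of the 2397 K556R calls 2355 had the same sign in the wild type. The wild-type groups were of other sizes, so the number of calls is not a measure of the strength of response. The difference between the responses, K556R minus wild type, was called for 0 genes (0% of genes tested) by edgeR, with 440 genes at an unadjusted p below 0.05, and for 0 by DESeq2, with 444. Its smallest adjusted p was 0.9999. In batch 2 alone 0 genes were called too, but 1606 of 15363 had an unadjusted p below 0.05. In batch 1 alone that number was 466 of 15262. A count of 0 does not show that the responses were equal.

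Genes were named largely by their K556R results, a choice that can favour larger changes there. Genes called in K556R livers had a median change of 0.42 there and 0.32 in the wild type, counted in the K556R direction. Genes called in the wild type had 0.43 there and 0.41 in K556R livers, counted in the wild-type direction. Values for the same genes stand side by side as follows. The log2 fold change of Fasn was 3.08 in K556R and 2.15 in wild-type livers, that of Srebf1 was 2.07 and 1.46, and that of Angptl8 was 3.30 and 2.40. For Pck1 it was -1.65 and -1.53, for Angptl4 -1.80 and -1.50, and for Klf9 -1.17 and -1.07. Prox1, which fell in K556R livers, had a wild-type log2 fold change of -0.086 (adjusted p = 0.634), and the difference of the Prox1 responses was -0.23 (SE 0.13, adjusted p = 0.9999). The list medians of de novo lipogenesis were 1.24 and 0.79, of cholesterol synthesis 0.65 and 0.76, and of the glucocorticoid and fasting targets -1.14 and -1.20.

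The genes with the smallest unadjusted p for the difference, none of which passed adjustment, include 4 that responded in both genotypes. Cyp4a32 fell by 1.36 on the log2 scale in K556R and by 0.88 in wild-type livers, a difference of -0.48 (SE 0.12, unadjusted p = 0.000449, adjusted p = 0.9999). Gabarapl1 fell by 0.82 and 0.50 (difference -0.32, SE 0.10, unadjusted p = 0.00436), and Mgea5, the enzyme that removes O-GlcNAc, fell by 0.56 and 0.32 (difference -0.24, SE 0.079, unadjusted p = 0.00461). Enpep, the glutamyl aminopeptidase, rose by 0.74 and 0.37 (difference 0.37, SE 0.11, unadjusted p = 0.00236). The change was the greater one in K556R livers for each of the 4. The remaining 6 had small changes of opposite sign in the genotypes: Ddx41 (0.20 and -0.11), Ints6l (0.17 and -0.33), Trim35 (0.37 and -0.21), Cdc23 (0.18 and -0.16), Atp6v1g2 (-0.34 and 0.34) and Maml3 (0.28 and -0.53). With 0 genes called, these values are a ranking of the smallest p and not a set of genes shown to differ.

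**Figure D3:**
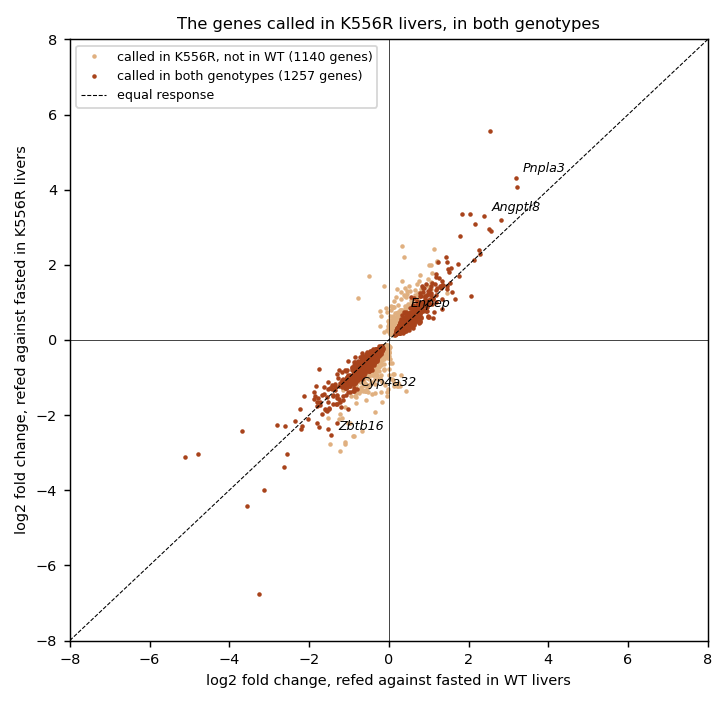
Log2 fold change, refed against fasted, of the 2397 genes called in K556R livers, in wild-type livers (x axis) and K556R livers (y axis); dark points were called in both genotypes (1257 genes) and light points in K556R but not in wild type (1140 genes), and the dashed line marks equal responses. Nearly all points, 2355 of 2397, lie in the quadrants of equal sign.

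The response was not the same in each batch. Of the 2397 called genes 2378 had the same sign in both batches and 19 did not, a count that the choice of genes called over both batches largely fixes. Across all 15603 genes tested, Pearson's r between the batch responses was 0.068 and Spearman's rho 0.15 in K556R livers, against 0.34 and 0.35 in the wild type. These are correlations across genes, which are not independent replicates, and the libraries of a batch share their processing. Batch 1 alone gave 1497 calls and batch 2 alone 1925, with 439 in common, 411 of the same direction and 28 opposite. A test of the difference between the batch responses called 552 genes in K556R livers (3.54% of genes tested), 204 more positive and 348 more negative in batch 2, and 453 of them with opposite signs in the batches. Of the 552, 112 were also among the 2397. Of all genes tested, 15.4% were among the 2397. In the wild type the same test called 0 genes (0%) by edgeR, with 1355 at an unadjusted p below 0.05, and the difference of this difference between genotypes called 0, with 1492 at an unadjusted p below 0.05. Without the 2 libraries that stand apart, K556R refed batch 1 replicate 4 and K556R fasted batch 2 replicate 2, the K556R count was 6. It was 170 without the first of them and 113 without the second, and 178 without K556R fasted batch 1 replicate 1. Leaving out libraries shrinks the groups, so a lower count does not by itself show smaller differences between batches.

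**Figure D4:**
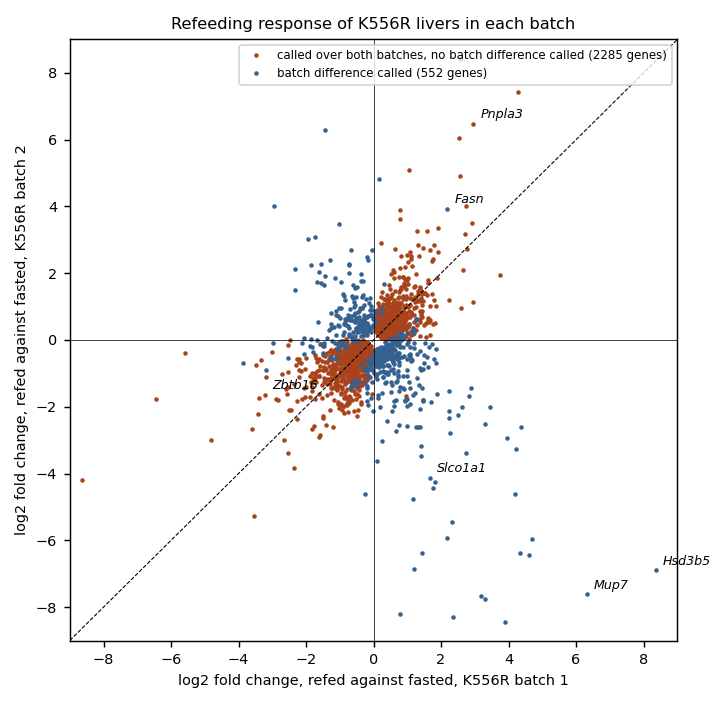
Log2 fold change, refed against fasted in K556R livers, in batch 1 (x axis) and batch 2 (y axis); red points are the 2285 genes called over both batches without a called batch difference, blue points the 552 genes with one, and the dashed line marks equal responses. Fasn and Pnpla3 lie high in both batches, while Mup7, Slco1a1 and Hsd3b5 have positive values in batch 1 and negative ones in batch 2.

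Genes with the widest batch difference included liver genes known to be higher in males, a pattern set by pulses of growth hormone. This grouping was chosen after the values were seen. Of 20 such genes 0 were called in the pooled response by edgeR (1 at an unadjusted p below 0.05) and 2 by DESeq2. There were 17 calls in the batch difference, all more negative in batch 2. Hsd3b5, a male-pattern steroid dehydrogenase, measured 0.0448 to 0.464 CPM in fasted batch 1, 5.15 to 85.6 CPM in fasted batch 2, 0.865 to 322 CPM in refed batch 1 and 0.0593 to 0.565 CPM in refed batch 2 libraries. Mup7, a major urinary protein whose reads may be shared with near-identical copies, measured 3.23 to 12.5 CPM in fasted batch 1, 911 to 8925 CPM in fasted batch 2, 10.1 to 2261 CPM in refed batch 1 and 10.4 to 32.4 CPM in refed batch 2 libraries. The organic anion transporter Slco1a1 measured 52.6 to 144 CPM in fasted batch 1, 170 to 467 CPM in fasted batch 2, 78.8 to 658 CPM in refed batch 1 and 13.3 to 24.7 CPM in refed batch 2 libraries. Among K556R libraries the highest fasted one for all 3 genes was batch 2 replicate 2, and the highest refed one was batch 1 replicate 4. Wild-type libraries also spread widely. Mup7 measured 1.66 to 56.0 CPM in fasted batch 1, 15.1 to 3300 CPM in fasted batch 2, 3.33 to 43.7 CPM in refed batch 1 and 41.5 to 7983 CPM in refed batch 2 wild-type libraries. WT refed batch 2 replicate 1 was the highest wild-type library for all 3 genes, with 7983 CPM of Mup7, 92.6 CPM of Hsd3b5 and 359 CPM of Slco1a1.

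The batch difference was -15.25 for Hsd3b5 (adjusted p = 0.00537), -13.94 for Mup7 (adjusted p = 0.00537) and -5.79 for Slco1a1 (adjusted p = 0.00537). Without the 2 libraries it was -11.16, -10.94 and -4.52, with adjusted p of 0.0567, 0.0548 and 0.0595. Cyp7b1, the male-biased oxysterol hydroxylase, had a difference of -4.56 (adjusted p = 0.0116), the omega-hydroxylase Cyp4a12b one of -3.42 (adjusted p = 0.0062) and Serpina1e, an alpha-1 antitrypsin gene, one of -6.12 (adjusted p = 0.0132). Cyp2a4, a female-pattern cytochrome P450, went the other way (4.85, adjusted p = 0.0339), the 1 of 8 tested female-pattern genes that was called. The Cyp2a4 call was lost in 8 of the 15 fits that each left out 1 library, with a highest adjusted p of 0.129 without K556R fasted batch 2 replicate 2, and that of Serpina1e without K556R refed batch 1 replicate 4, where the difference was -3.93 (adjusted p = 0.0532). Without both libraries that stand apart none of these 4 was called: the difference was -2.74 for Cyp7b1 (adjusted p = 0.141), -2.54 for Cyp4a12b (adjusted p = 0.0675), -3.32 for Serpina1e (adjusted p = 0.196) and 3.92 for Cyp2a4 (adjusted p = 0.158).

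**Figure D5:**
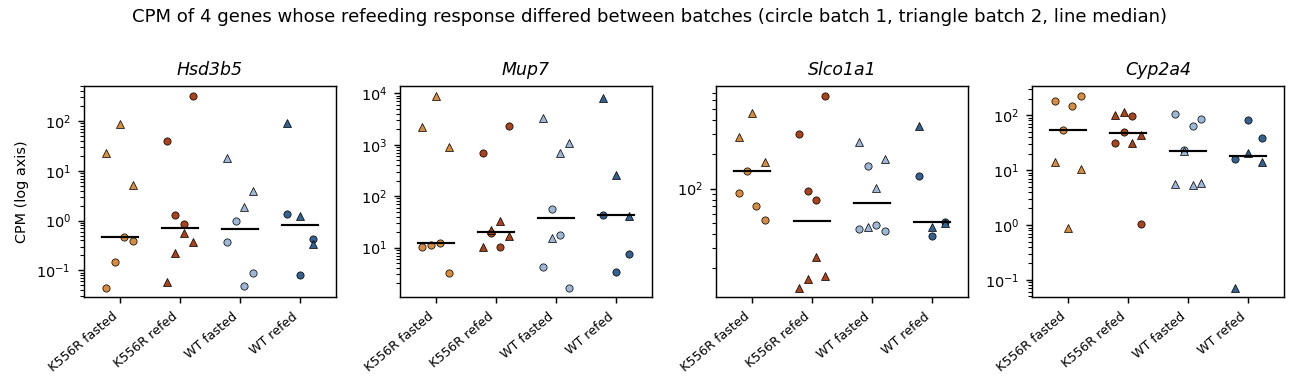
CPM on a log axis in every library for 4 genes whose refeeding response differed between batches in K556R livers; circles are batch 1, triangles batch 2 and lines group medians. In K556R livers, fasted batch 2 libraries are high for Hsd3b5, Mup7 and Slco1a1, and refed batch 2 libraries are low. Single batch 1 refed K556R libraries are high. WT refed batch 2 replicate 1 is also high for these genes. The Hsd3b5 value of 0 CPM in WT fasted batch 2 replicate 2 has no place on the log axis.

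Outside the male-pattern and female-pattern genes, those with a called batch difference included Fasn (1.76, adjusted p = 0.0468), which rose in both batches but further in batch 2. They also included Lpin1 (2.90, adjusted p = 0.0159), Fkbp5 (2.01, adjusted p = 0.017), Cdkn1a (2.02, adjusted p = 0.024) and Mt1 (2.29, adjusted p = 0.0485), which fell further in batch 1. The calls for Fasn, Mt1 and Cdkn1a were lost in 11, 12 and 4 of the 15 fits that each left out 1 library. Without both libraries that stand apart none of the 5 was called. The difference was then 1.39 for Fasn (adjusted p = 0.288), 2.84 for Lpin1 (adjusted p = 0.101), 2.23 for Fkbp5 (adjusted p = 0.067), 1.66 for Cdkn1a (adjusted p = 0.119) and 1.91 for Mt1 (adjusted p = 0.277). The lipogenic median was 0.90 in batch 1 and 1.86 in batch 2, and that of the glucocorticoid and fasting targets was -1.27 and -0.49. Other lists whose medians were far apart included the PPAR-alpha targets (-0.65 and -0.07), cholesterol synthesis (0.29 and 1.07) and the cell cycle (-0.18 and 0.65). The batch difference was called for 4 of 16 lipid droplet and lipolysis genes and 4 of 26 urea cycle and amino acid genes. It was also called for 4 of 19 CAR and PXR genes and 4 of 20 cell cycle genes, against 3.54% of all genes tested. All of these calls were more positive in batch 2. In the cholesterol synthesis, autophagy and clock lists it was called for 0 genes. The sum of CPM over the male-pattern genes ran from 4509 to 30240 over the fasted and from 2804 to 19200 over the refed libraries, and its part in these batch differences was not tested.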

How the data were processed

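Polyadenylated RNA of mouse liver was sequenced in 29 libraries. The authors deposited a table of read counts per gene, whole numbers that were not normalized. Per the submitters' processing notes the tools were STAR, TopHat, HTSeq, STAR-Fusion, DESeq2 and edgeR and the build was mm10; the annotation release and the strand setting are not given in the sources used here, and the labels' protocol names directional and non-directional libraries as alternatives, so reads of overlapping or antisense genes may not be separated. All 29 columns of counts were matched to samples by title, and 0 were left out. Of the 54532 identifiers 54495 matched GENCODE M21, which gave symbols and coordinates.

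Counts were filtered with filterByExpr (minimum count 10, 15603 genes kept), scaled by TMM and fitted with edgeR 4.0.16 (R 4.3.3, limma 3.58.1) by the quasi-likelihood method, with a term per genotype and feeding state over all 4 groups, which share 1 estimate of the spread, and a batch term. Benjamini-Hochberg adjustment ran over all genes tested. The difference between batch responses came from a fit with a mean per group and batch. It was added after the data were seen, as was leaving out 2 libraries together. The scripts were tested on simulated data. The 49 pairs of libraries within a K556R group differed beyond sampling noise (chi-square per degree of freedom 12.0 to 148), so none were merged. Alternatives were DESeq2 1.42.0, RLE and upper-quartile scaling, no filter, a minimum count of 30, 1 genotype at a time, no batch term, each batch alone, the mean of the batch responses, a replicate block, and leaving out each library.

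Members and lists were chosen with earlier results of these data known. Genes were named by rule: the 15 largest rises and falls among called genes of the same sign in each batch whose log2 CPM averaged 1 or more, the 5 most abundant called genes in each direction, in each list the first 3 members tested and the 4 of smallest p, Prox1, and the 10 of smallest p for the difference between genotypes. Not every gene so named has its values given, and some are not reported here. Named outside the rule, after their values were seen, were Aacs, Abcg8, Atf5, Bckdha, Chpt1, Cyp4a12b, Cyp7b1, Dnaja1, Ern1, Gpd1, Gpi1, Idh1, Igfbp4, Mlxipl, Ncor1, Per2, Pfkfb1, Ppp1r3c, Psph, Serpina1e, Slc2a2, Slco1a1, Stard4 and Thrsp, and the lists of male-pattern and female-pattern genes. Promoter sequences are from RefSeq (GRCm38.p6), which held one for 11054 of the genes tested.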

Additional observations from a re-analysis of the deposited data

Results flagged for a closer look

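In each K556R group the highest and lowest library of every gene with printed values was compared with its nearest neighbour on the log2 CPM scale, and 19 of 356 groups (178 genes) had a library farther off than Dixon's 95% critical value. Chance flags about 1 in 20 groups.

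Of these, 4 were K556R refed batch 1 replicate 4 as the lowest refed library: Abcc3 at 114.8 CPM, Cyp2a4 at 1.046 CPM, Mat1a at 2711 CPM and Plin4 at 15.63 CPM. K556R fasted batch 2 replicate 2 was the lowest fasted library for Ccnd1 (9.341 CPM), Mcm3 (3.376 CPM) and Slc2a2 (265.1 CPM), and the highest for the chaperone Hsp90aa1 (331.6 CPM). These are the libraries that stand apart on the second principal component.

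K556R fasted batch 1 replicate 2 was the highest fasted library for the sterol-responsive Insig1 (193.5 CPM) and for Gpam (204.6 CPM), and the lowest for Gadd45a (0.8753 CPM) and Manf (24.51 CPM). K556R fasted batch 2 replicate 1 was the highest for Aacs (148.1 CPM). K556R fasted batch 2 replicate 3 was the highest for Lrat (30.52 CPM) and the lowest for Pfkfb2 (14.11 CPM). Among refed libraries, batch 1 replicate 1 was the highest for Chpt1 (537.7 CPM) and Cyp4a32 (43.73 CPM), batch 2 replicate 4 the highest for Mvd (42.19 CPM), and batch 2 replicate 3 the lowest for Nlrp12 (13.78 CPM).

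The refeeding response of K556R livers differed between the batches, by the test of the difference itself, for 552 genes, with 6 left without both libraries that stand apart.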

How the results depend on the processing

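The 2397 calls in K556R livers, edgeR with an adjusted p below 0.05, became 1497 with batch 1 alone and 1925 with batch 2 alone, where 35.0% rather than 45.4% of calls were higher. Over the other settings the count ran from 1900 without a filter to 2749 for the mean of the batch responses, with 2682 by DESeq2, and from 2041 to 2477 over the left-out libraries. The 323 calls of 2-fold or more ran from 226 (minimum count 30) to 456 (batch 2 alone), and from 271 to 336 over the left-out libraries. The 1667 wild-type calls became 846 in batch 1 alone and 592 in batch 2 alone, which hold fewer samples, and ran from 1322 to 1737 over the left-out libraries. The count for the difference between genotypes was 0 under every setting run. The genes at an unadjusted p below 0.05 for it varied, from 440 of 15603 in the main fit to 1606 of 15363 in batch 2 alone. The 552 calls of the batch difference in K556R livers became 6 without both libraries that stand apart, and ran from 113 to 745 over the left-out libraries. The cause of these shifts was not tested.

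Repeat numbers did not pair the libraries: over 7 fasted and refed libraries of equal number and batch the correlation of their deviations ran from -0.297 to 0.0447. With the number as a replicate block, 2032 genes were called, 2001 of them among the 2397, 273 at 2-fold or more, 1466 in the wild type and 0 for the difference.

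Values with a changed sign were small, but some stood against larger values over both batches. Cyp7a1, not called, was 0.071 in batch 2 alone and ran from -0.22 to 0.033 over the left-out libraries. In batch 2 alone Cyp4a14 was 0.143, against -1.25 over both batches, and Ern1 was -0.00103, against 0.45. In batch 2 alone the median log2 fold change was 0.091 for gluconeogenesis, -0.0087 for endoplasmic reticulum chaperones and -0.0175 for the SUMO machinery. For fatty acid elongation and desaturation it was -0.0122 in batch 1 alone. The median over all genes was at most 0.018 under any setting. Genes of a few CPM rest on few counts, and the batch 2 fasted group has 3 libraries.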
